A study of Mus musculus with 3 samples.

Results

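The collagen and laminin genes of mouse were followed through the cell lineages of the early embryo. Members were chosen by symbol alone, as every gene whose symbol has the form of a collagen chain (Col, a number, a and a number) or of a laminin chain (Lama, Lamb or Lamc and a number). This gave 55 of the 31054 features counted, 44 collagen and 11 laminin genes. No measured value entered the choice.

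The study dissociated 3 wild-type (WT) male embryos of the strain C57BL/6 x 129 SvEv at embryonic day 8, each on its own, after the extraembryonic tissue had been cut away. The protocol gives a range of 0 to 1 somite and another label 0 to 2. Cells were captured in droplets and their transcripts counted from the 3′ end as unique molecular identifiers (UMIs, where the copies of 1 molecule count once), with 1 library per embryo. There was no treatment and no other genotype, so the comparisons are between lineages of the same embryos, and all of them share cells of these 3 libraries.

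Collagens are triple helices of 3 alpha chains. Network-forming collagen IV and laminin, a cross-shaped trimer of an alpha, a beta and a gamma chain, are the 2 sheets of every basement membrane, the thin layer under epithelia and around vessels and muscle. Fibrillar collagens such as types I, II, III, V and XI instead form the banded fibres of connective tissue and cartilage. In the gastrulating and early somite embryo, basement membranes lie between the germ layers and under the visceral endoderm, whereas collagen fibres are known mainly from later mesenchyme.

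Cells that passed quality control numbered 5777, 7895 and 7811 for embryos 1, 2 and 3, with a median of 27700, 14701 and 16389 UMIs. They were sorted into lineages by the number of marker genes with a UMI after each cell had been thinned to 5000 UMIs, and no marker was a collagen or laminin gene. A lineage name below means the cells that passed that gate (definitive-endoderm-like cells, for example), not a lineage shown by other means. Some gates were taken in an order. The left-right organizer came before axial mesoderm, and both came before definitive endoderm and caudal epiblast. A cell that passed an earlier gate of this order was not counted as passing a later one. By this rule the gates took in 12008 of 21483 cells, while 8259 passed none and 1216 passed several. The extraembryonic endoderm gate held 267, 1187 and 929 cells of embryos 1, 2 and 3, although extraembryonic tissue had been cut away. Where these cells came from was not tested. The 45 primordial-germ-cell-like cells were too few to be used, and embryo 1 held 1 erythroid cell, so erythroid values are from embryos 2 and 3. For 12 of the 14 lineages the summed markers were highest in their own cells, and each marker was too, apart from Foxa2 of definitive endoderm. The exceptions were axial mesoderm and caudal epiblast. For axial mesoderm T, Noto, Nog, Chrd and Foxa2 were not highest in its own cells, and the marker sum was higher in the left-right organizer (LRO). For caudal epiblast T and Sox2 were higher elsewhere. The axial mesoderm gate also held definitive endoderm markers at 59.0% of their summed level in definitive endoderm (54.2% without Foxa2, which both lists hold). Cells that passed both of these gates were kept out of definitive endoderm by the order above. Whether single cells carried both sets of markers was not counted, so values of axial mesoderm below are of the gate as a whole. Libraries shared between 18 and 22 cell barcodes with each other.

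The genes of collagen IV lie head to head in pairs. Some bases at or before their starts are shown because the 2 chains of a pair were counted side by side throughout. Col4a2 (chr8:11312805-11449287, + strand) and Col4a1 (chr8:11198423-11312826, - strand, GRCm38) overlap by 22 bases at their starts in the annotation, read here on the + strand (chr8:11312805-11312826). Matches are not put in capitals in these bases, which do hold GGGCGG.
Col4a1 and Col4a2: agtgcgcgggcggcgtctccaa
Col4a3 and Col4a4 on chromosome 1 have 71 bases between their starts, and Col4a5 and Col4a6 on the X chromosome have 1308. Whether the position of the starts bears on the levels of a pair was not tested. The bases just upstream of Col4a5 and of Col4a6 are printed 5′ to 3′ on the gene's own strand (RefSeq, GRCm38.p6). In them CCAAT, and GGGCGG on either strand, are in capitals.
Col4a5 (chrX:141475169-141475384, +): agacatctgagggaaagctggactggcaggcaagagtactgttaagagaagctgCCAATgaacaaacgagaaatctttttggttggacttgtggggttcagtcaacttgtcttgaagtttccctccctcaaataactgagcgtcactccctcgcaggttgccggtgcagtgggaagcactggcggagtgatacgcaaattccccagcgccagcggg
Col4a6 (chrX:141474077-141474326, -): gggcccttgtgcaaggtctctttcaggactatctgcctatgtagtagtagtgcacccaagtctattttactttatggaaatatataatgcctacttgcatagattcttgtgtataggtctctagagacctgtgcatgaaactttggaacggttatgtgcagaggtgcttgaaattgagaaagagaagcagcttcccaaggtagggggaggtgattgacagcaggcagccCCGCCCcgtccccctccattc
Col4a5 held 1 CCAAT and no GGGCGG in this window, and Col4a6 held 1 GGGCGG and no CCAAT. The Col4a5 window was cut to 216 bases at an annotated exon, while that of Col4a6 has 250. Over the 32851 promoter windows of 250 bases, searched on both strands, 33.85% held CCAAT, 32.74% GGGCGG and 12.37% TATAAA. Of 44 such windows of 40 members with an entry, 31.82% held CCAAT, 54.55% GGGCGG and 11.36% TATAAA. These are matches of letters and not sites shown to be bound.

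The 55 genes made up between 0.044% and 0.046% of the UMIs of an embryo, 225021 UMIs in all cells together. Basement membrane chains took most of them. Collagen IV held 40.4% of the members' UMIs, the multiplexins (Col15a1 and Col18a1, collagens of basement membrane zones) 15.9%, and the laminin alpha, beta and gamma chains 6.16%, 9.68% and 6.99%. The 11 fibrillar collagens together held 10.4%. Col4a1 by itself gave 25.4%, 29.8% and 30.5% of members' UMIs in embryos 1, 2 and 3.

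Levels are given as UMIs of the gene per 1000000 UMIs (CPM) of the cells of a lineage in 1 embryo. Because 3′ UMIs count molecules whatever the transcript's length, they can be set side by side between genes, apart from differences in how well each 3′ end is captured. A mean of 50 CPM or more in some lineage was reached by 7 genes, namely Col4a1, Col4a2, Col18a1, Lamb1, Lamc1, Col2a1 and Col23a1. Another 13 reached 10 CPM, 20 in all, whereas 15 stayed under 1 CPM in every lineage. Among the latter were the collagen IV chains Col4a3 and Col4a4 (at most 0.162 and 0.343 CPM), the multiplexin Col15a1 (0.423 CPM), the laminin chains Lama3 and Lamc3 (0.197 and 0.276 CPM) and Col17a1, a transmembrane collagen of hemidesmosomes (0.412 CPM). At these levels a few UMIs make up a value, and no order between lineages can be read.

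**Figure D1:**
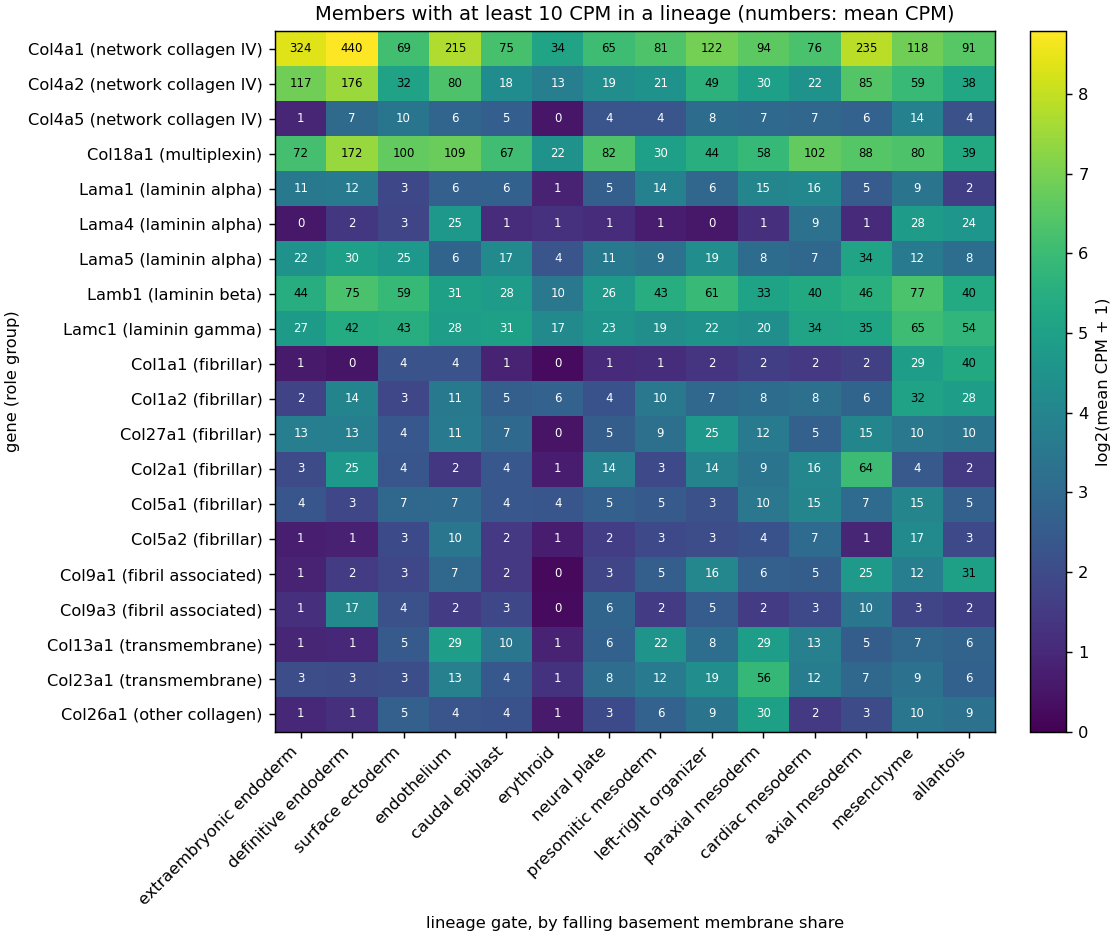
Mean CPM over embryos of the 20 genes that reached 10 CPM (rows, with their role group) in each of 14 lineage gates (columns, by falling share of basement membrane UMIs). Colour is log2(mean CPM + 1) and the number in each field is the mean CPM. Col4a1 and Col4a2 are brightest in both endoderm columns, Col1a1 in allantois and mesenchyme, Col2a1 in axial mesoderm and Col23a1 in paraxial mesoderm.

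For the tests, UMIs were summed per embryo and lineage into 41 sums, and each lineage was compared with the mean of the other lineages by edgeR's quasi-likelihood test with TMM normalization, at an adjusted p of 0.05 (Benjamini-Hochberg over the 13656 genes tested). Log2 differences below are from that fit, with a standard error (SE), and CPM are not TMM scaled. TMM factors were 0.801 and 0.844 for erythroid cells and reached 1.14 for the LRO. They were 0.853 to 0.897 for extraembryonic endoderm and 1.02 to 1.06 for definitive endoderm. A ratio of CPM and a log2 difference can therefore differ in size. Of the 55 members, 37 passed the filter on low counts. A member that passed only through the lineage where it was high had to differ there, so that the counts over these 37 are a description. Over all 518 pairs of a tested member and a lineage, 138 were higher (26.6%, against 19.1% over all genes) and 95 were lower (18.3%, against 16.0% over all genes). With all other gated cells of the embryo pooled as the comparison, where large lineages weigh more, the split was 97 higher and 142 lower. The share over all genes is not given for that comparison, so the change of split is not read as a result about the members.

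Col4a1, the alpha 1 chain of the collagen IV network, was highest in definitive endoderm and extraembryonic endoderm. Definitive endoderm had 436, 431 and 453 CPM in embryos 1, 2 and 3, and extraembryonic endoderm 330, 303 and 338 CPM. Both lay above every other lineage in every embryo. Axial mesoderm followed with 227, 299 and 179 CPM and endothelium with 166, 234 and 244 CPM, and these 2 ranges overlapped. At the percentage of definitive endoderm markers found in the axial gate, Col4a1 would be at 260 CPM there (239 CPM without Foxa2), beside the 235 CPM measured. The lowest levels were in erythroid cells, at 23.3 and 44.6 CPM, and in neural plate, at 56.9, 63.1 and 75.4 CPM. Against the mean of the other lineages the log2 difference was 2.03 ± 0.10 (SE, adjusted p = 2.41e-20) in definitive endoderm, 1.84 ± 0.09 (adjusted p = 5.13e-20) in extraembryonic endoderm, 1.00 ± 0.13 (adjusted p = 9.28e-08) in axial mesoderm and 1.00 ± 0.11 (adjusted p = 3.19e-10) in endothelium. Col4a1 was lower in 8 lineages, erythroid cells among them (-1.67 ± 0.18, adjusted p = 1.29e-10).

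Col4a2, the partner chain in the most widespread collagen IV trimer, followed the same order at its top. It had 179, 184 and 165 CPM in definitive endoderm and 127, 108 and 117 CPM in extraembryonic endoderm. Axial mesoderm (89.5, 94.0 and 71.5 CPM) and endothelium (64.4, 83.3 and 93.4 CPM) overlapped again. Across the 14 lineage means of log2(CPM + 1), Col4a1 and Col4a2 had a Pearson r of 0.965, given as a description since all points come from the same 3 libraries. The ratio of Col4a1 to Col4a2 UMIs was not the same everywhere. It was 2.00 ± 0.24 (SD, n = 3) in mesenchyme, 2.11 ± 0.08 in surface ectoderm, 2.51 ± 0.21 in definitive endoderm, 3.81 ± 0.03 in presomitic mesoderm and 4.06 ± 0.35 in caudal epiblast. No triple helix can be read from a ratio of transcripts.

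Col4a5 and Col4a6 encode chains of another collagen IV trimer and were far rarer. Col4a5 was highest in mesenchyme (15.09, 15.02 and 10.58 CPM), with a log2 difference of 1.67 ± 0.15 (adjusted p = 1.14e-11), and next in surface ectoderm (mean 9.74 CPM). Col4a6 was highest in cardiac mesoderm (5.38, 6.39 and 8.14 CPM), with a log2 difference of 1.47 ± 0.21 (adjusted p = 4.24e-07), and had 5.68, 6.96 and 5.73 CPM in mesenchyme. In both genes these leading ranges overlapped with those of the next lineage. Their lineage means had a Pearson r of 0.894. Extraembryonic endoderm, which was second for Col4a1, held 0.916, 1.17 and 0.673 CPM of Col4a5, so that Col4a5 and Col4a6 made 0.2% and 0.1% of its collagen IV UMIs, against 8.5% and 4.3% in surface ectoderm and 7.0% and 3.1% in mesenchyme.

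Col18a1, which encodes the collagen whose C-terminal fragment is endostatin, was also highest in definitive endoderm (171, 167 and 178 CPM, log2 difference 1.41 ± 0.10, adjusted p = 6.28e-15). Endothelium had 85.1, 133 and 109 CPM, cardiac mesoderm 96.9, 104 and 105 CPM and surface ectoderm 110, 99.9 and 91.8 CPM. Only definitive endoderm stood apart, since the other 3 overlapped. Presomitic mesoderm was low at 21.5, 26.7 and 42.2 CPM (-1.33 ± 0.15, adjusted p = 6.93e-09), and erythroid cells had 19.1 and 24.2 CPM.

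Lamb1 and Lamc1 encode the beta and gamma chains shared by most laminins of the embryo, and they were spread more evenly than collagen IV. Lamb1 had 78.3, 84.5 and 68.1 CPM in mesenchyme and 73.9, 70.5 and 80.3 CPM in definitive endoderm, which overlapped. Their log2 differences were 1.05 ± 0.08 (adjusted p = 1.48e-13) and 0.93 ± 0.09 (adjusted p = 2.09e-11). The LRO had 72.8, 71.0 and 40.5 CPM, so embryo 3 was low there. Lamc1 was highest in mesenchyme (59.6, 81.2 and 54.2 CPM, log2 difference 1.19 ± 0.09, adjusted p = 2.24e-14) and allantois (50.9, 62.4 and 49.7 CPM, 0.84 ± 0.10, adjusted p = 2.18e-08), again with overlap. Erythroid cells had 17.8 and 16.9 CPM of Lamc1, beside a mean of 19.5 CPM in presomitic mesoderm. The ratio of Lamb1 to Lamc1 UMIs ran from 0.749 ± 0.098 (SD, n = 3) in allantois to 2.93 ± 1.11 in the LRO, leaving aside erythroid cells at 0.607 (n = 2). Across lineages the 2 genes had a Pearson r of 0.611.

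**Figure D2:**
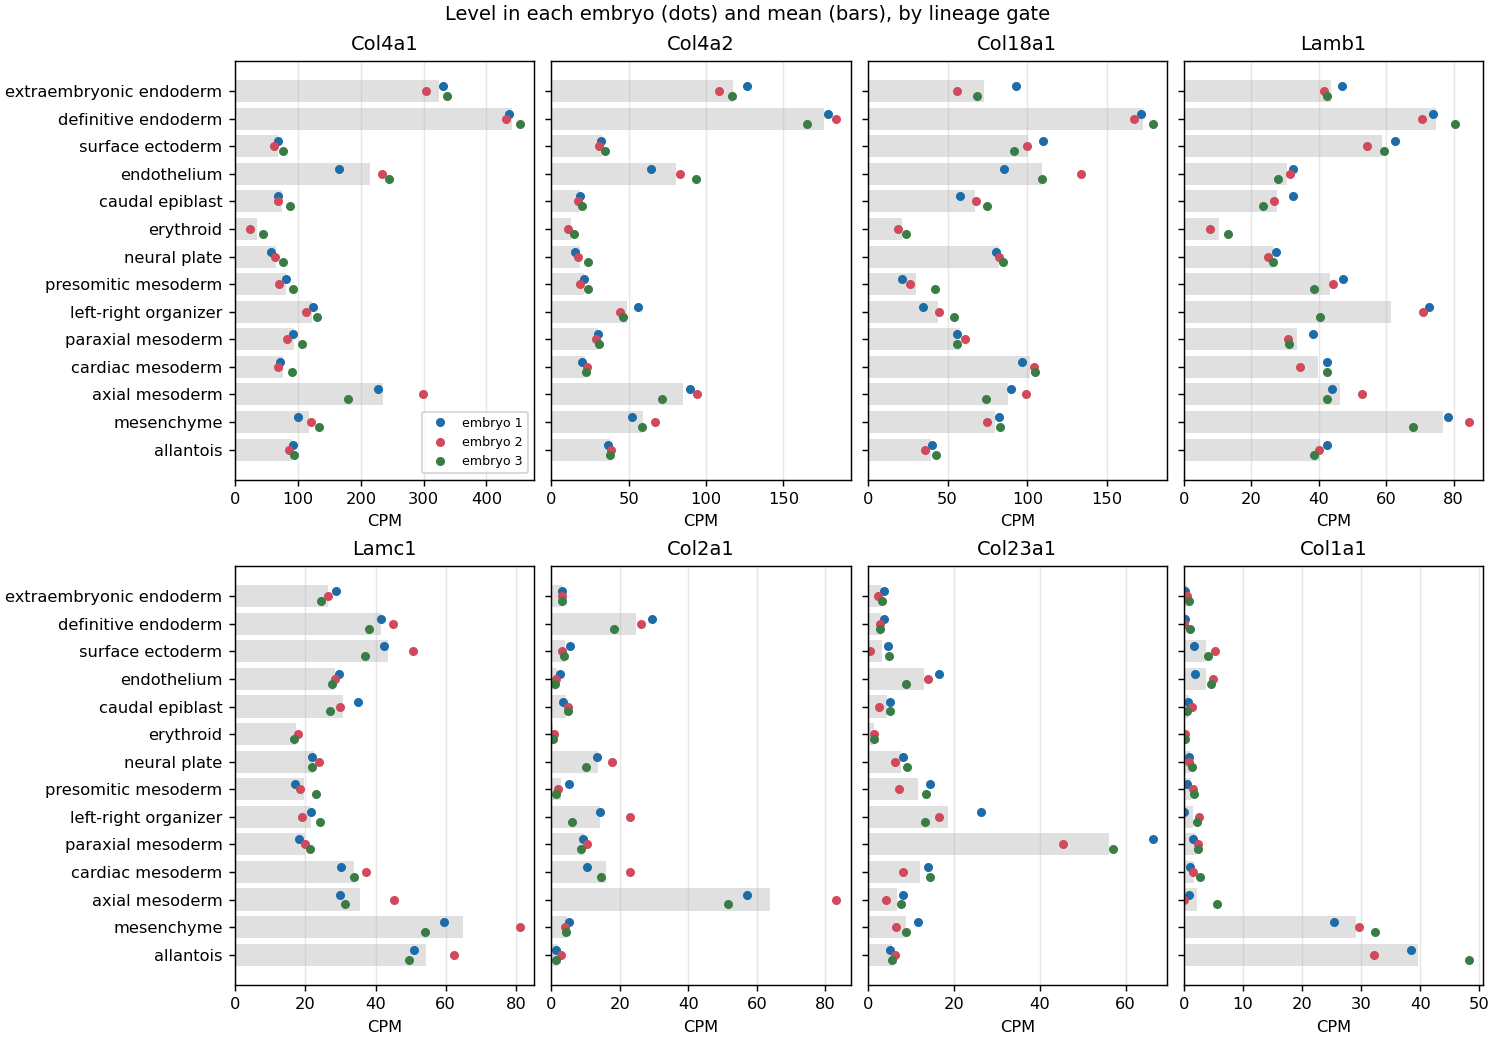
CPM in each embryo (dots) and the mean over embryos (bars) by lineage gate for the 7 genes that reached 50 CPM and for Col1a1; each panel has its own axis from 0, and erythroid cells have 2 embryos. In these CPM, which are not TMM scaled, definitive endoderm stands apart from all other lineages in Col4a1 and Col18a1, whereas Lamb1 and Lamc1 vary less. In the fit Col4a1 was not called between definitive and extraembryonic endoderm.

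The other beta chains were scarce. Lamb2, a beta chain best known from kidney and neuromuscular basement membranes, was highest in extraembryonic endoderm (9.04, 5.78 and 7.01 CPM, log2 difference 1.38 ± 0.14, adjusted p = 1.59e-11). Lamb3 encodes the beta chain of the epithelial laminin that anchors hemidesmosomes, and had 6.08, 7.77 and 2.16 CPM in definitive endoderm. Lama3, which encodes the alpha chain of that same laminin, gave 18 UMIs in all 21483 cells. Lamb1 held between 82.9% and 94.8% of the beta chain UMIs of a lineage.

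The laminin alpha chains, which set the receptor binding of the trimer, divided the lineages. Lama5 led in axial mesoderm (45.6, 30.2 and 26.8 CPM, log2 difference 1.49 ± 0.18, adjusted p = 1.39e-08), definitive endoderm (28.8, 31.3 and 30.9 CPM) and surface ectoderm (28.6, 23.6 and 22.0 CPM). Lama4, known from vessel and mesenchymal basement membranes, led in mesenchyme (22.4, 32.0 and 29.7 CPM, 3.81 ± 0.17, adjusted p = 2.64e-21), endothelium (24.5, 24.9 and 25.2 CPM, 3.61 ± 0.18, adjusted p = 1.54e-19) and allantois (22.9, 19.8 and 28.0 CPM, 3.46 ± 0.20, adjusted p = 6.06e-17). Axial mesoderm overlapped both other lineages for Lama5, while surface ectoderm lay just under definitive endoderm. The 3 leading lineages for Lama4 overlapped each other and lay above the 8.07, 8.21 and 9.95 CPM of cardiac mesoderm, the next in order. Lama1, the alpha chain of the earliest embryonic laminin, led in cardiac mesoderm (17.6, 17.3 and 13.6 CPM, 1.54 ± 0.15, adjusted p = 3.91e-11), paraxial mesoderm (16.9, 14.7 and 13.6 CPM) and presomitic mesoderm (14.0, 11.7 and 15.2 CPM), which overlapped. In allantois Lama1 fell to 2.86, 1.84 and 1.66 CPM (-1.74 ± 0.23, adjusted p = 2.08e-07). Lama2, the muscle laminin chain, did not pass the filter and had at most 2.49 CPM, in the LRO.

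As a share of the alpha chain UMIs of each lineage, Lama4 made 69.5% ± 4.6 (SD, n = 3) in allantois, 68.2% ± 4.7 in endothelium and 56.3% in mesenchyme. Lama5 made 82.2% ± 7.4 in axial mesoderm, 81.3% in surface ectoderm, 70.5% ± 4.9 in caudal epiblast, 69.1% ± 1.9 in definitive endoderm and 65.6% ± 2.1 in extraembryonic endoderm. Lama1 made 61.0% in paraxial mesoderm, 59.3% in presomitic mesoderm and 49.8% ± 6.1 in cardiac mesoderm. In each of these lineages the same chain was the most abundant in all 3 embryos. The shares rest on between 90 (erythroid cells) and 1588 (extraembryonic endoderm) alpha chain UMIs.

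**Figure D3:**
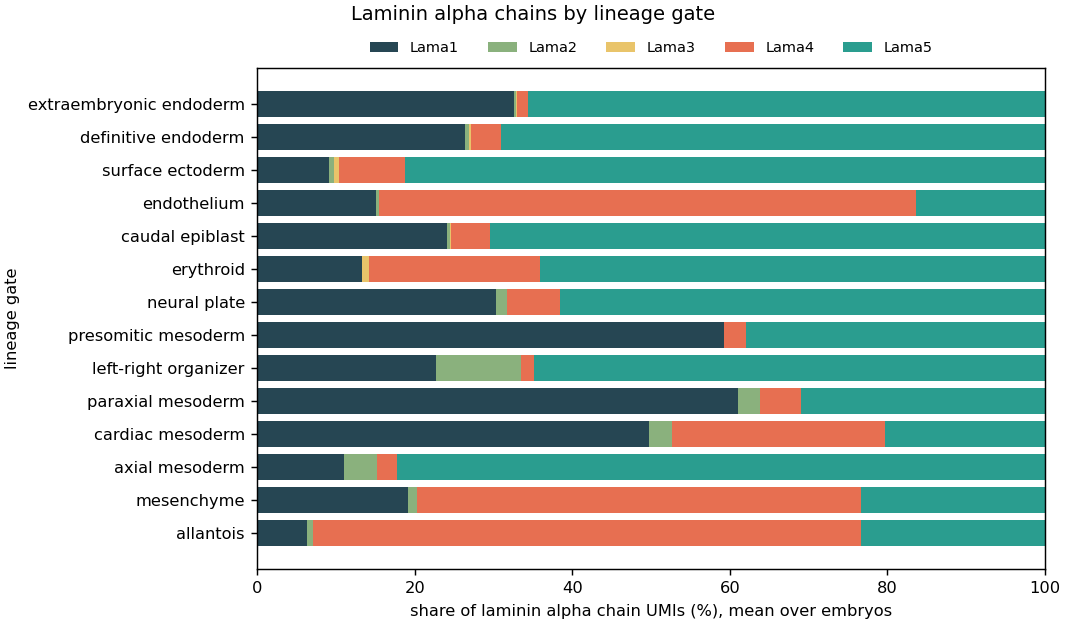
Share of laminin alpha chain UMIs (percent, mean over embryos) taken by Lama1 to Lama5 in each lineage gate. Lama4 takes the largest part in endothelium, mesenchyme and allantois, Lama1 in presomitic, paraxial and cardiac mesoderm, and Lama5 in the other lineages.

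The promoter of Lama5, the leading alpha chain in most lineages, is shown here (RefSeq, GRCm38.p6, GGGCGG on either strand in capitals).
Lama5 (chr2:180225860-180226109, -): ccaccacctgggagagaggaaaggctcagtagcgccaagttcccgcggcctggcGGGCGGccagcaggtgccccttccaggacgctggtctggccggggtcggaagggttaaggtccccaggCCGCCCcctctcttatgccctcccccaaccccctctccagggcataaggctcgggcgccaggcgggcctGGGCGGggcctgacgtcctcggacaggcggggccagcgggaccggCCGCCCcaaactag
It held 4 matches of GGGCGG, with a GC content of 72.4%.

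Among fibrillar collagens, Col1a1 and Col1a2, the chains of collagen I, were highest in allantois and mesenchyme. Col1a1, which was picked for its values in every embryo after they had been seen, had 38.5, 32.1 and 48.2 CPM in allantois and 25.4, 29.7 and 32.3 CPM in mesenchyme. In no other lineage did an embryo exceed 5.59 CPM. The log2 differences were 4.69 ± 0.20 (adjusted p = 3.49e-21) and 4.29 ± 0.19 (adjusted p = 1.88e-21). Col1a2 had 28.4, 45.3 and 23.7 CPM in mesenchyme (2.19 ± 0.18, adjusted p = 3.42e-13) and 23.2, 26.1 and 36.1 CPM in allantois, yet unlike Col1a1 it was also found in definitive endoderm, at 10.9, 20.3 and 12.2 CPM. There the ratio of Col1a1 to Col1a2 UMIs was 0.033 ± 0.040 (SD, n = 3), against 0.971 ± 0.358 in mesenchyme and 1.41 ± 0.22 in allantois. A low ratio was not particular to definitive endoderm. In the other lineages its mean ran from 0.037 in erythroid cells (n = 2) to 0.357 in paraxial mesoderm, apart from axial mesoderm (0.859 ± 1.42) and surface ectoderm (2.06 ± 2.12). Col3a1, the other fibrillar collagen typical of soft connective tissue, reached only 2.56 CPM, in mesenchyme.

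Col2a1, the cartilage and notochord collagen, was highest in axial mesoderm with 57.2, 83.2 and 51.4 CPM (log2 difference 3.55 ± 0.22, adjusted p = 4.65e-16). Definitive endoderm had 29.5, 26.1 and 18.2 CPM, and cardiac mesoderm, the LRO and neural plate had means between 13.7 and 15.9 CPM. Axial mesoderm did not overlap with any of these. Col2a1 made 60.0% of the fibrillar UMIs of axial mesoderm, Col1a1 43.1% of those of allantois, and Col27a1, a fibrillar collagen of cartilage, 51.7% of those of extraembryonic endoderm and 43.4% of those of the LRO. In level, Col27a1 was highest in the LRO (32.2, 20.3 and 22.1 CPM, 1.70 ± 0.19, adjusted p = 1.14e-09). It was called higher in 7 lineages, axial mesoderm among them (mean 15.3 CPM), and was not called between the LRO and axial mesoderm. Col5a2, a collagen V chain that regulates fibril width, had 15.1, 20.2 and 15.7 CPM in mesenchyme (2.95 ± 0.18, adjusted p = 4.7e-17).

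Collagens outside both matrix classes gave some of the most restricted patterns. Col23a1, a transmembrane collagen, had 66.3, 45.4 and 57.0 CPM in paraxial mesoderm (log2 difference 3.14 ± 0.13, adjusted p = 5.75e-21), and the next lineage, the LRO, had 26.5, 16.5 and 13.2 CPM, without overlap. Col26a1, a secreted collagen known from testis and ovary, had 28.5, 32.5 and 30.4 CPM in paraxial mesoderm (3.25 ± 0.15, adjusted p = 1.17e-19), and no embryo of another lineage exceeded 14.1 CPM. Col13a1, a transmembrane collagen of cell junctions, was spread more widely. Its highest means were in endothelium (43.97, 20.99 and 22.7 CPM, 2.47 ± 0.17, adjusted p = 1.82e-15) and paraxial mesoderm (29.5, 25.5 and 32.1 CPM, 2.42 ± 0.17, adjusted p = 9.73e-15). Presomitic mesoderm followed at a mean of 22.2 CPM, and Col13a1 was called higher in 5 lineages, with cardiac mesoderm and caudal epiblast among them. Embryo 1 was the high one in endothelium. The promoter of Col23a1, the only gene outside both matrix classes to reach 50 CPM, is shown with its 1 GGGCGG match in capitals (RefSeq, GRCm38.p6).
Col23a1 (chr11:51289670-51289919, +): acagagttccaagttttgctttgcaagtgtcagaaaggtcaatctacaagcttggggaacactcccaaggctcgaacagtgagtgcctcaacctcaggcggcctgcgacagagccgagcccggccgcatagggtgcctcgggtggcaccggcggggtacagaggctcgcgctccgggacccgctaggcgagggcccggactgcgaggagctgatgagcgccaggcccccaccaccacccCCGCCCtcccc

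The fibril-associated collagens, which coat fibrils, were split as well. Col9a1 was highest in allantois (33.4, 26.9 and 33.0 CPM, 3.07 ± 0.15, adjusted p = 6.57e-20) and axial mesoderm (24.9, 36.7 and 14.5 CPM). Col9a3, a chain of the same trimer, was highest instead in definitive endoderm (18.3, 14.5 and 17.3 CPM, 2.71 ± 0.17, adjusted p = 9.59e-17) and had a mean of 2.11 CPM in allantois. Col16a1 was highest in the LRO (9.92, 12.7 and 5.15 CPM, 4.35 ± 0.45, adjusted p = 2.65e-10), and Col14a1 in endothelium (7.17, 3.00 and 2.68 CPM, 3.21 ± 0.37, adjusted p = 2.51e-09). Col16a1 was also called higher in axial mesoderm (mean 4.41 CPM) and definitive endoderm, and was not called between the LRO and axial mesoderm. Col7a1, the anchoring fibril collagen, was the only tested member with its highest mean in erythroid cells (4.09 and 2.52 CPM, from 51 and 10 UMIs, 1.93 ± 0.33, adjusted p = 3.77e-06). That call was lost without embryo 2 (adjusted p = 0.0953), when a single erythroid sum is left and is assumed to vary like the other lineages. Of the 6 beaded filament genes of collagen VI, 3 were tested and none exceeded a mean of 3.47 CPM. Col6a5, at that level in the LRO, rested on 8, 3 and 0 UMIs.

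Set against each other, basement membrane chains (collagen IV, multiplexins and laminins, 19 genes) outnumbered fibrillar chains (11 genes) in every lineage and every embryo. Their share of the UMIs of both groups was 96.7%, 95.4% and 96.6% in extraembryonic endoderm, 94.1%, 93.5% and 95.3% in definitive endoderm and 93.0%, 92.4% and 93.0% in surface ectoderm. It was lowest in allantois (78.5%, 77.9% and 74.9%) and mesenchyme (80.7%, 79.1% and 82.5%). Each of these 5 lineages was apart from its next neighbours in the order, with no overlap between embryos. Mesenchyme did overlap with cardiac mesoderm further along the order, at 82.5% in embryo 3 against 82.1% for cardiac mesoderm in embryo 2. Its place below axial mesoderm did not hold with 1 more marker asked of each gate, when axial mesoderm fell to 78.3% and mesenchyme was at 80.4%. Nor did it hold with thinned cells, when they were at 80.2% and 81.7%. Between them lay endothelium (91.5% ± 1.3, SD, n = 3), caudal epiblast (90.3% ± 0.7), erythroid cells (89.1%, n = 2), neural plate (87.7% ± 1.3), presomitic mesoderm (86.7% ± 3.0), the LRO (85.7% ± 1.4), paraxial mesoderm (84.9% ± 2.8), cardiac mesoderm (84.8% ± 3.5) and axial mesoderm (83.9% ± 0.9), where each overlapped the next. Cells that passed no gate had 86.7% ± 0.8.

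A share can fall because fibrillar UMIs rise or because basement membrane UMIs fall. Summed fibrillar CPM were highest in mesenchyme (114 ± 19, SD, n = 3), axial mesoderm (105 ± 15) and allantois (91.6 ± 11.4). Summed basement membrane CPM were 971 in definitive endoderm, 626 in extraembryonic endoderm, 552 in axial mesoderm, 514 in endothelium, 476 in mesenchyme and 308 in allantois. Axial mesoderm and mesenchyme were thus high in both sums, whereas extraembryonic endoderm was low in fibrillar CPM (24.4 ± 3.1). In allantois basement membrane CPM were 3.36 times fibrillar CPM, and in extraembryonic endoderm 25.6 times.

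**Figure D4:**
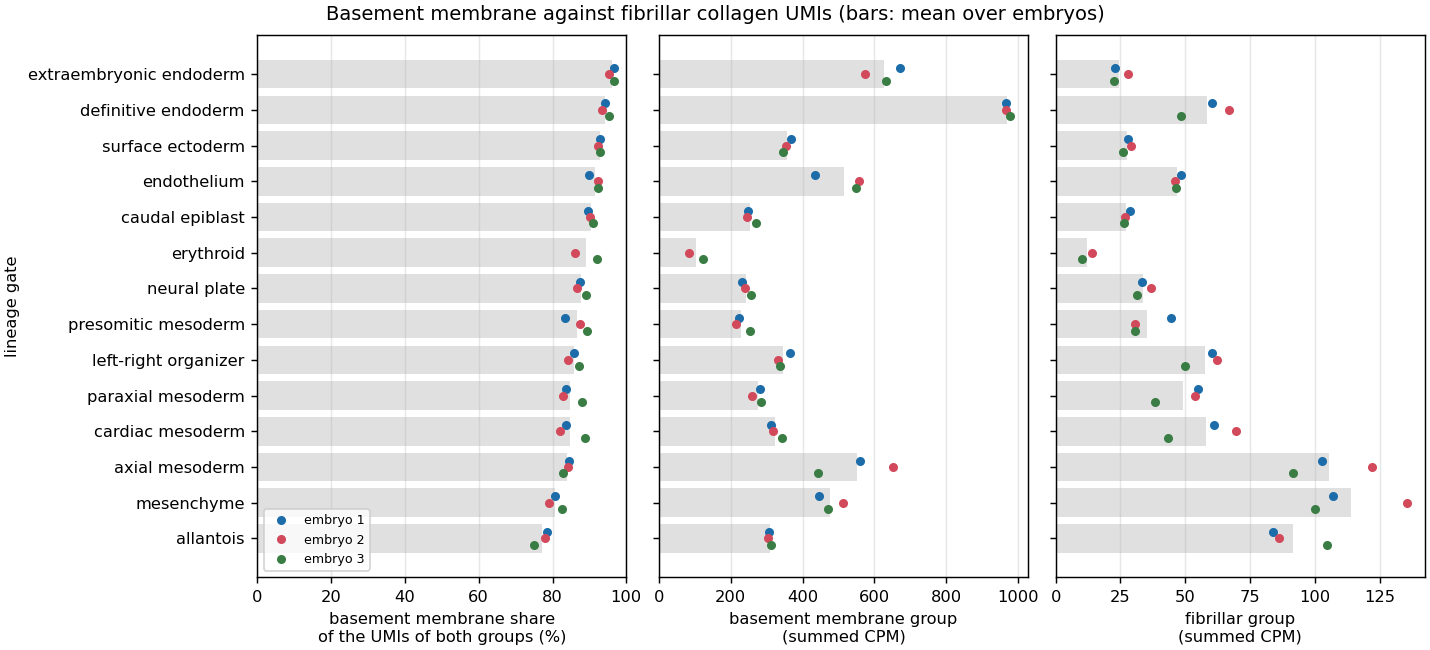
Left, the basement membrane share of the UMIs of basement membrane and fibrillar chains (percent); middle and right, the summed CPM of each group, by lineage gate in falling order of the share. Dots are embryos and bars are means. Extraembryonic endoderm lies at the top of the share at 96.2% and allantois at the bottom at 77.1%, while the summed fibrillar CPM are highest in mesenchyme and axial mesoderm.

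The share of cells with at least 1 UMI was likewise highest in both endoderm lineages. Col4a1 was found in 98.9%, 94.6% and 98.7% of definitive endoderm cells and 98.5%, 97.6% and 98.5% of extraembryonic endoderm cells, against 26.4% and 43.9% of erythroid cells of embryos 2 and 3. Depth differs between cells and embryos (medians of 14740 and 16267 UMIs in erythroid cells of embryos 2 and 3, and of 23802, 13647 and 14498 in definitive endoderm), so shares were also taken after thinning to 5000 UMIs. Col4a1 was then in 80.0% of definitive endoderm, 78.8% of extraembryonic endoderm, 60.9% of endothelium, 54.4% of axial mesoderm and 14.3% of erythroid cells (means over embryos). Erythroid cells, which should make little matrix, are given as a reference, and how much of their share is free RNA was not tested.

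After thinning, Col1a1 was in 16.1% of allantois and 13.5% of mesenchyme cells but in no erythroid cell, where 0.3% had a UMI at full depth. Lama4 was in 14.2% of mesenchyme, 10.3% of allantois and 9.47% of endothelium cells, against 0.99% of erythroid cells and 0.19% of extraembryonic endoderm cells. Col2a1 was in 32.3% of axial mesoderm cells and 0.06% of erythroid cells, and Col23a1 in 23.8% of paraxial mesoderm and 0.19% of erythroid cells. All of these thinned shares lay above those of erythroid cells, other than the Lama4 share in extraembryonic endoderm.

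By lineage, mesenchyme had the most members above the mean of the other lineages, 19 of 37 (51.4%, against 18.0% over all genes), with members of collagen I, III, IV, V and laminin among them and none lower. Definitive endoderm had 16 higher (24.2% over all genes), and axial mesoderm 14 (14.7%), endothelium 14 (23.9%) and the LRO 13 (20.9%). Extraembryonic endoderm had 8 higher (37.4% over all genes), which were Col4a1, Col4a2, Col18a1, Lama1, Lama5, Lamb1, Lamb2 and Col27a1, and 15 lower (33.7%), among them Col1a1, Col1a2, Col2a1 and Lama4. In erythroid cells 27 of 37 were lower (35.2% over all genes). There the median log2 difference was -2.83 over the tested members and -0.16 over all genes, which is the only lineage where the median of all genes was off 0 by more than 0.1.

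RNA from other cells was looked at through the gate markers. Extraembryonic endoderm markers summed to 23814 CPM in their own lineage, 2439 CPM in definitive endoderm, 1108 CPM in axial mesoderm, 251 CPM in the LRO and between 85.9 and 135 CPM in the other lineages. The same percentages of the Col4a1 level of extraembryonic endoderm would come to 33.2 CPM in definitive endoderm (440 measured), 15.1 CPM in axial mesoderm (235 measured) and 1.36 CPM in endothelium (215 measured). Definitive endoderm markers summed to 1804 CPM in their own lineage, 1065 CPM in axial mesoderm and 361 CPM in the LRO. Of these sums Trh gave 720, 523 and 74.2 CPM and Foxa2 92.9, 136 and 139 CPM. Parietal endoderm, which makes the thick Reichert's membrane, was looked for by 4 markers. Thbd and Srgn reached at most 2.47 and 7.34 CPM and Plat 31.7 CPM, whereas Pth1r had 89.9 CPM in extraembryonic endoderm. Markers of trophoblast (Prl3d1, Prl2c2, Tpbpa) and of decidua and leukocytes (Prl8a2, Ptprc) had 0 UMIs, which allows up to 0.0115 CPM over the gated cells by counting error alone. The part of these cells in the values was not tested otherwise.

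Of 4 pairs of neighbouring lineages, the first set extraembryonic endoderm, which lines the yolk sac, against definitive endoderm, the future gut. Of 37 members, 18 were lower in extraembryonic endoderm (29.0% of all genes were) and 2 were higher (31.7% of all genes). Col4a1 was not called (log2 difference -0.18 ± 0.15, adjusted p = 0.306), although its CPM, which are not scaled by the TMM factors, did not overlap. Col18a1 was lower in extraembryonic endoderm (-1.002 ± 0.15 on the log2 scale, adjusted p = 2.24e-07), with 93.0, 55.9 and 68.6 CPM against 171, 167 and 178, and Lamb1 was too (-0.52 ± 0.12, adjusted p = 0.000292). Several scarcer genes differed more. Lamb3 was at 0.230, 0.090 and 0.110 CPM against 6.08, 7.77 and 2.16 (-4.98 ± 0.58, adjusted p = 2.92e-09), Col9a3 at 1.37, 1.45 and 0.953 CPM against 18.3, 14.5 and 17.3 (-3.45 ± 0.26, adjusted p = 2.71e-14) and Col4a5 at 0.916, 1.17 and 0.673 CPM against 7.28, 7.12 and 7.19 (-2.65 ± 0.29, adjusted p = 4.58e-10). Col2a1 (-2.75 ± 0.26, adjusted p = 1.28e-11) and Col1a2 (-2.26 ± 0.33, adjusted p = 2.1e-07) were lower too. Lamb2 was higher in extraembryonic endoderm (1.40 ± 0.22, adjusted p = 1e-06, no overlap), which was lost with cells thinned to 5000 UMIs (adjusted p = 0.256). The call on Col4a2 (-0.33 ± 0.12, adjusted p = 0.0154) was lost without embryo 2 (adjusted p = 0.159), and that on Lamc1 (-0.39 ± 0.13, adjusted p = 0.0119) without embryo 3 (adjusted p = 0.0609). Col5a1, the second higher gene (adjusted p = 0.0329), overlapped between lineages and was lost without embryo 1 or 2 (adjusted p = 0.0678 and 0.551).

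Paraxial mesoderm, which holds forming somites and head mesoderm, was set against presomitic mesoderm, the unsegmented tissue before it. Here 6 of 37 members were higher (4.20% of all genes were) and 1 was lower (4.77% of all genes). Col26a1 differed by 2.32 ± 0.27 (adjusted p = 2.61e-08, 28.5, 32.5 and 30.4 CPM against 6.91, 2.92 and 7.39) and Col23a1 by 2.19 ± 0.24 (adjusted p = 6.25e-09, 66.3, 45.4 and 57.0 CPM against 14.4, 7.29 and 13.5). Col18a1 was higher by 1.01 ± 0.18 (adjusted p = 0.000115), at 56.0, 60.8 and 55.8 CPM against 21.5, 26.7 and 42.2. None of these overlapped. Col25a1, a transmembrane collagen found in neurons, was the lower one (-2.54 ± 0.64, adjusted p = 0.00574), and it missed the threshold without embryo 3 (adjusted p = 0.0531). It was not among the genes tested without embryo 1, with the stricter gate or with thinned cells, so the call is absent there too. Weaker calls were Col2a1 (1.42 ± 0.36, adjusted p = 0.00648), lost without embryo 2 or 3 (adjusted p = 0.0619 and 0.075), Col5a1 (1.20 ± 0.35, adjusted p = 0.0189), lost without embryo 1 (adjusted p = 0.428), and Col4a2 (0.50 ± 0.16, adjusted p = 0.0406), lost without any of the 3 embryos (adjusted p between 0.0578 and 0.255). The laminins Lama1 and Lamc1 were not called (adjusted p = 0.774 and 0.947).

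The LRO, the ciliated pit that sets the left-right axis, was set against the axial mesoderm gate, meant for the notochord and prechordal plate beside it. As given above, 5 of the 7 axial markers were not highest in axial mesoderm. The 7 together had 1728 CPM in the LRO against 1672 CPM in axial mesoderm, and Foxa2 had 139 against 136 CPM. Noto is on both marker lists, and a cell that passed the LRO gate was not counted as axial mesoderm. Of 37 members 8 were lower in the LRO (4.88% of all genes were) and 1 was higher (8.53% of all genes). Col4a1 had 123, 113 and 130 CPM in the LRO and 227, 299 and 179 CPM in axial mesoderm (-0.97 ± 0.19, adjusted p = 0.000268, no overlap). Col2a1 had 14.1, 22.8 and 5.89 CPM against 57.2, 83.2 and 51.4 (-2.31 ± 0.34, adjusted p = 2.66e-06), the largest well-counted difference. Both calls held without each embryo in turn. When 1 more marker was asked of each gate, the difference in Col4a1 shrank to -0.58 (adjusted p = 0.0542) and was no longer called, while Col2a1 stayed past the threshold. Col4a1, Col4a2, Col18a1 and Col2a1 also had higher mean CPM in definitive endoderm than in the LRO, and definitive endoderm markers were at 20.0% of their own level in the LRO against 59.0% in axial mesoderm. At 59.0% of the definitive endoderm level, Col4a2 would be at 104 CPM in axial mesoderm (85.0 measured), Col18a1 at 102 CPM (87.5 measured) and Col2a1 at 14.5 CPM (63.9 measured). The part of endoderm cells or their RNA in the first 3 calls was not tested. Col18a1 (-1.003 ± 0.23, adjusted p = 0.00158) and Col4a2 (-0.82 ± 0.18, adjusted p = 0.00116) did not overlap, and both just missed the threshold without embryo 2 (adjusted p = 0.0502 and 0.0627), and Col4a2 also with the stricter gate (-0.47, adjusted p = 0.169). The remaining calls rested on fewer counts or on single embryos. Col23a1, the higher one (1.41 ± 0.45, adjusted p = 0.0311), and Lamc1 (-0.71 ± 0.24, adjusted p = 0.0389) were lost whichever embryo was left out (adjusted p between 0.0652 and 0.301, and between 0.0541 and 0.338). Lama5 (-0.87 ± 0.25, adjusted p = 0.0117) overlapped and was lost without embryo 1 or 3 (adjusted p = 0.103 and 0.0801), and with the stricter gate Lama5 and Lamc1 were at -0.51 and -0.25 (adjusted p = 0.317 and 0.705). Col11a1 (-2.94 ± 0.88, adjusted p = 0.0186) was lost without embryo 1 or 2 (adjusted p = 0.23 and 0.107). Col6a2 had no UMI in the LRO of any embryo, against 2.49, 2.16 and 1.12 CPM in axial mesoderm. The axial mesoderm mean of 1.92 CPM is 2.15 times the 0.895 CPM that 3 counts over the LRO would give. The counting error of the axial mesoderm values is not in that ratio, so it is no lower bound. The call on Col6a2 (adjusted p = 0.0473) was lost with the embryo as a block (adjusted p = 0.0522) and without each embryo in turn (adjusted p between 0.126 and 0.227). The LRO and axial mesoderm sums are the smallest used, from 38 to 58 cells each. Without embryo 1, 2 or 3 there were 4, 3 and 5 calls.

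Surface ectoderm, the future epidermis, was set against neural plate. Of 37 members 8 were higher in surface ectoderm (8.13% of all genes were) and 4 were lower (4.94% of all genes). The laminin chains Lamb1 (1.16 ± 0.13, adjusted p = 1.86e-08), Lama5 (1.20 ± 0.18, adjusted p = 2.03e-06) and Lamc1 (0.92 ± 0.15, adjusted p = 9.38e-06) were higher without overlap, with Lamb1 at 62.5, 54.4 and 59.3 CPM against 27.4, 24.9 and 26.5. Of collagen IV, Col4a2 (0.79 ± 0.15, adjusted p = 0.000247), Col4a5 (1.24 ± 0.27, adjusted p = 0.000988) and Col4a6 (1.34 ± 0.27, adjusted p = 0.00038) were higher and Col4a1 was not called (adjusted p = 0.861). Col4a6 was lost without embryo 1 (adjusted p = 0.0655), and Col4a2 and Col4a5 with thinned cells (adjusted p = 0.0623 and 0.0758). Lama1 went the other way, at 2.31, 2.95 and 2.99 CPM against 6.16, 5.74 and 4.07 (-0.99 ± 0.28, adjusted p = 0.012), and this was lost without embryo 1 or 2 (adjusted p = 0.324 and 0.131). Col2a1 was lower as well (-1.66 ± 0.35, adjusted p = 0.000572). The call on Col1a1, which was higher in surface ectoderm, was lost without embryo 2 or 3 (adjusted p = 0.295 and 0.124). Col7a1 and Col23a1 were lower. Col7a1 was lost without the same embryos (adjusted p = 0.269 and 0.246) and Col23a1 without any of the 3 (adjusted p between 0.09 and 0.183).

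**Figure D5:**
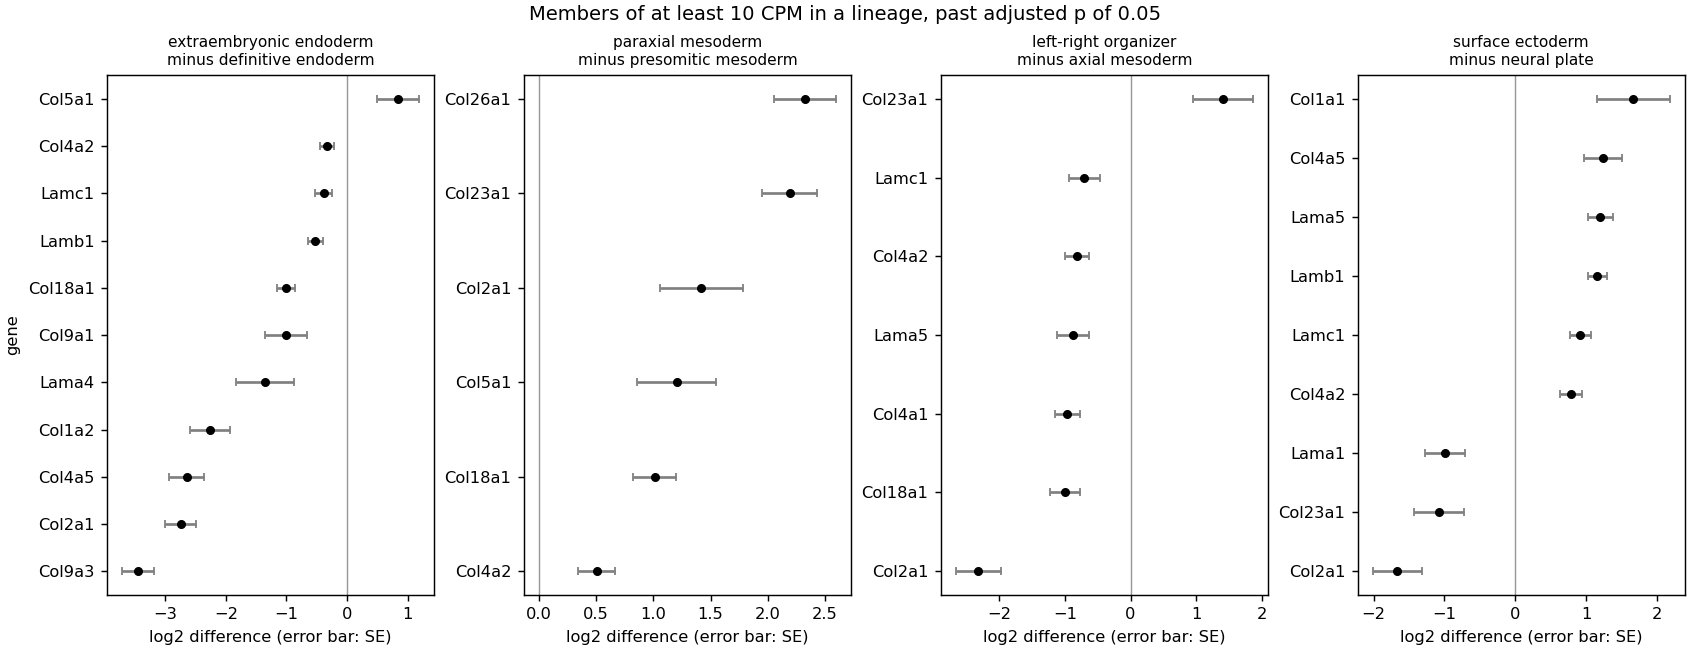
Log2 difference (dot) and its standard error (bar) for those of the 20 genes with a mean of 10 CPM in some lineage that passed an adjusted p of 0.05, in each of 4 pairs of lineages; values right of 0 are higher in the lineage named first. Most lie left of 0 for extraembryonic against definitive endoderm and for the LRO against axial mesoderm.

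Genes that make, link and bind these chains were taken from a list of 32, of which 30 were tested. Of the basement membrane partners (6 genes), 32 of 84 pairs of gene and lineage were higher and 30 lower. Collagen processing genes had 57 higher and 47 lower of 196, and receptors 43 higher and 35 lower of 140, in all cases beside 19.1% and 16.0% over all genes. Sparc, a collagen-binding protein of basement membranes, had 400, 423 and 326 CPM in definitive endoderm and a mean of 370 CPM in extraembryonic endoderm, the same lineages that led for Col4a1. Nid2, which links laminin to collagen IV, was highest in extraembryonic endoderm (112, 75.7 and 82.7 CPM, log2 difference 2.06 ± 0.11, adjusted p = 9.64e-20). Serpinh1, the collagen chaperone of the endoplasmic reticulum, was highest in mesenchyme (662, 757 and 615 CPM, 1.25 ± 0.07, adjusted p = 4.46e-17). Fn1, fibronectin, was highest in endothelium (402, 415 and 422 CPM), and Bcam, a receptor for laminins with the Lama5 chain, in definitive endoderm (103, 106 and 89.6 CPM), with surface ectoderm and axial mesoderm next at means of 82.3 and 74.0 CPM. The prolyl hydroxylase subunits P4ha1 and P4hb and the lysyl oxidase Loxl2 had their highest means in extraembryonic endoderm (95.5, 406 and 70.3 CPM), and the prolyl hydroxylase P3h2 in cardiac mesoderm (50.8 CPM). Agrn, a heparan sulfate proteoglycan, Dag1, a laminin receptor, and the lysyl hydroxylase Plod2 were highest in definitive endoderm (81.5, 88.7 and 59.6 CPM), and the integrin Itgb1 in endothelium (243 CPM). Mesenchyme had 23 of the 30 higher (18.0% of all genes were), and erythroid cells had 19 lower (35.2% of all genes). In the LRO, 13 of the 30 were lower than in axial mesoderm (4.88% of all genes were) and 1 was higher (8.53%). Definitive endoderm markers were at 59.0% of their own level in axial mesoderm and 20.0% in the LRO. The part of endoderm cells or their RNA in these calls was not tested.

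Across the 14 lineage means of log2(CPM + 1), the 5 genes most like Col4a1 among 4682 genes of at least 50 CPM were Col4a2 (Pearson r = 0.965), Tram1 (0.943), Cab39 (0.931), mt-Cytb (0.929) and Prkcsh (0.927). Those most like Lama1 were Pth1r (0.856), Epb41l3 (0.818), Prdx4 (0.776), Tceal8 (0.771) and Fbln1 (0.769). Those most like Col1a1 were Hand1 (0.940), Pitx1 (0.938), Ryk (0.935), Hoxc8 (0.922) and Spin2c (0.920). Hand1, Pitx1 and Spin2c are themselves among the markers that set the mesenchyme and allantois gates. Among members, Lama4 and Col1a1 had an r of 0.803, Col1a1 and Col1a2 0.714, Lama1 and Lama5 0.150 and Col4a1 and Col1a1 -0.055.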

How the data were processed

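Droplet libraries (10x 3′ v3) of 3 embryos had been aligned and counted by the authors with Cell Ranger 3.1.0 on mm10 with an added EGFP sequence, as the labels and the submitters' processing notes give it. The deposited values are UMI counts per gene and barcode, not normalized. Barcodes numbered 6579, 8621 and 8333, with 207961733, 149341900 and 167503888 UMIs. Cells were kept by the gene and mitochondrial limits of the study, and with at least 0.5% mitochondrial and 5000 UMIs. Scrublet's own threshold called 0, 3 and 1 doublets, so none were removed, and the top 6% by score were removed as an alternative.

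Gates asked for 2 to 6 markers with a UMI, and their thresholds were set after the data had been seen. Members were taken by symbol alone, but that rule and the lists were chosen with earlier results of these data known. UMI counts were summed per embryo and gate into 41 sums of 38 to 1187 cells and tested in 1 fit with edgeR 4.0.16 (R 4.3.3; glmQLFit, TMM, filterByExpr), which had been tested on simulated data. All comparisons share these sums. Levels for correlations used a pseudocount of 1. DESeq2 1.42.0, the embryo as a block, no filter, pooled others, stricter gates, thinned cells and leaving out each embryo were alternatives. Sums with the same replicate number come from the same embryo, so the numbers pair them: their deviations from lineage means had a median r of 0.161, against -0.078 between embryos. The deviations of a lineage cancel over its embryos, so the second value largely follows from the first and is no separate contrast. By rule, values in every embryo were given for members with a mean of 50 CPM or more in a lineage and for the other collagen IV and laminin chains. Col4a3, Col4a4, Lama2, Lama3 and Lamc3, which did not pass the filter on low counts, were given only by their highest mean. Values of 1 member are not reported here. All other members named with values, such as Col1a1, Col1a2, Col5a2, Col9a1, Col13a1, Col26a1 and Col27a1, were chosen after their values had been seen, for a high level or for a call in a pair of lineages. Limits given for genes without a UMI cover counting error only, whereas SE come from the fit over the sums and SD are between embryos. Gene coordinates are those of GENCODE vM21 (GRCm38).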

Additional observations from a re-analysis of the deposited data

How the results depend on the processing

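None of the 85 single results reversed under an alternative in which it was tested. The order of mesenchyme and axial mesoderm in the basement membrane share did reverse with the stricter gate and with thinned cells, as given above. With all other gated cells pooled, lower pairs of member and lineage (142) outnumbered higher ones (97), against 95 and 138 in the main test. Shares over all genes are not given for any alternative, so no count under them is read as a result about the members. Of 836 values of 85 single results under alternatives, 749 kept their direction and side of the threshold, 85 lost the call and 2 gained it. A result that was not tested under an alternative is not among these values and was not counted as lost. Tested were 58 of the 85 with thinned cells, 69 with the stricter gate and 79 without embryo 1. With cells thinned to 5000 UMIs, the pairs of member and lineage called were 85 higher and 53 lower, and the calls in the 4 pairs of lineages were 9 for extraembryonic against definitive endoderm, 4 for paraxial against presomitic mesoderm, 5 for the LRO against axial mesoderm and 4 for surface ectoderm against neural plate; fewer UMIs are counted there by construction. With the stricter gate the LRO against axial mesoderm gave 4 calls (9 in the main test), and the cause was not tested. Leaving out 1 embryo gave 111 to 125 higher and 71 to 82 lower pairs of member and lineage, and 16 to 18, 4 to 5, 3 to 5 and 8 to 10 calls in the 4 pairs in the same order. The basement membrane share without Col4a1 and Col4a2, its most abundant genes, was 88.2% in extraembryonic endoderm and 72.5% in mesenchyme, and moved by more than the SD in all 14 lineages. The stricter gate and thinned cells moved it in 3 lineages each, to 78.3% and 80.2% in axial mesoderm, 91.6% and 91.0% in caudal epiblast and 94.1% and 93.6% in surface ectoderm. Leaving out 1 embryo gave 96.0% to 96.6% in extraembryonic endoderm and 79.9% to 81.6% in mesenchyme. With the embryo as a replicate block, which pairs sums of 1 embryo, there were 145 higher and 104 lower, and 21, 9, 9 and 12 calls in the 4 pairs. Among the 85 single results the block ended the call on Col6a2 in the LRO and made that on Col9a2 in axial mesoderm (adjusted p = 0.0485), and changed no other. DESeq2 gave 134 higher and 106 lower. The LRO and axial mesoderm sums hold 38 to 58 cells each.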
